A study of Mus musculus with 6 samples.

Results

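Autophagy and lysosome genes were described in brainstem and cerebellum of mice labelled MSA transgenic, set against wild-type mice. The 36 genes were listed by function, and every non-control probe whose gene name on the array was one of them was taken, which gave 78 of 56605 probes. A gene was read from its brightest tested probe, and 35 of the 24932 genes tested in this way were autophagy and lysosome genes. Total RNA was measured at 16 weeks of age in 3 MSA transgenic samples and 3 wild-type samples, each on 1 single-colour (Cy3) Agilent array. Both genotypes carry the same label of mixed strain, C57BL/6, 129 and C3H. What MSA stands for, which transgene is carried and what promoter or cell type drives it are not given in the labels, nor is the sex. Whether each sample came from its own animal is not stated either, and the spread behind every p-value may thus be technical.

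Autophagy carries cytoplasm and organelles to the lysosome for breakdown. A kinase complex and a lipid kinase complex start a membrane, ubiquitin-like conjugation systems attach small proteins of the Atg8 family to its lipids, and receptors bind cargo to those proteins. The closed vesicle fuses with a lysosome, which a proton pump keeps acidic and which holds soluble hydrolases behind a glycoprotein-rich membrane. The transcription factors TFEB, TFE3 and MITF bind an E-box sequence in the promoters of many of these genes. Neurons depend on the pathway for removal of aggregated protein, and microglia, the phagocytes of the brain, hold many lysosomes.

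The 75th percentile of the signal, to which each array was scaled, ranged from 535.0 to 609.2 intensity units on the 5 arrays of slide 2 (3 MSA transgenic, 2 wild-type) and was 405.7 on wild-type replicate 1, the single array of slide 1. The correlation of that array with the others across genes was 0.974 to 0.978, against 0.991 to 0.996 among the arrays of slide 2. Of 35 autophagy and lysosome genes, 17 had their highest level on it and 8 their lowest. Differences within slide 2, where 3 transgenic arrays faced 2 wild-type arrays, are therefore given for the genes whose sign they turned and for some others. The marker genes Pcp2 of Purkinje cells and Gabra6 of granule cells were well above background on all arrays, so markers of the labelled tissue were present. Of 5 forebrain markers, which the labelled tissue should lack, 4 passed the background filter, with 3 of 4 differences above 0 and a median of 0.43. The part of dissection in the results was not tested. The remaining marker, Emx1, was above background on at most 1 array.

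None of the 35 genes tested differed between the genotypes at an adjusted p under 0.05 (limma, Benjamini-Hochberg over all genes), where 0.0441% of all genes did. The smallest adjusted p was 0.817, shared by Man2b1, Atg16l1, Gaa, Psap, Tfeb, Atg12 and Gabarapl1. The lysosomal mannosidase gene Man2b1 had the smallest unadjusted p (limma, 0.060). At an unadjusted p under 0.05 the count was also 0 of 35, while 5.86% of all genes passed that limit. Differences are log2 levels of MSA transgenic minus wild-type samples, with SE and n = 3 per genotype, and a level is the log2 of the signal over the array's 75th percentile. The gene differences lay above 0 for 17 and below 0 for 18, against 49.9% above 0 among all genes. Their median was -0.011, beside -0.00049 over all genes, and ran from -0.52 for Atg16l1 to 0.40 for Tfeb. In bulk tissue a change in the number of cells of a type and a change in RNA per cell cannot be told apart.

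The size of the differences was small beside that of other genes, which were not matched to the 35 for signal level. The median level of the 35 genes ranged from 3.64 on wild-type replicate 1 to 3.77 on transgenic replicate 1. The part of signal level in the comparisons with all genes that follow was not tested. The median size regardless of sign was 0.038 for the 35 genes and 0.126 for all genes. The 95% interval of the difference lay within 1.5-fold either way for 32 of the 35, a property of 61.3% of all genes. The 3 exceptions were Atg16l1, Tfeb and Grn. For the other 32 genes no bound fell below -0.52 or above 0.48. The spread within a genotype was also narrow, with a median SD of 0.085 against 0.175 over all genes. The 2 genotypes did not overlap for 4 genes, where 14.9% of all genes showed such a separation. Man2b1, Gaa and Tfeb were 3 on the higher side, beside 7.4% of all genes, and Atg16l1 was 1 on the lower, beside 7.5%.

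**Figure D1:**
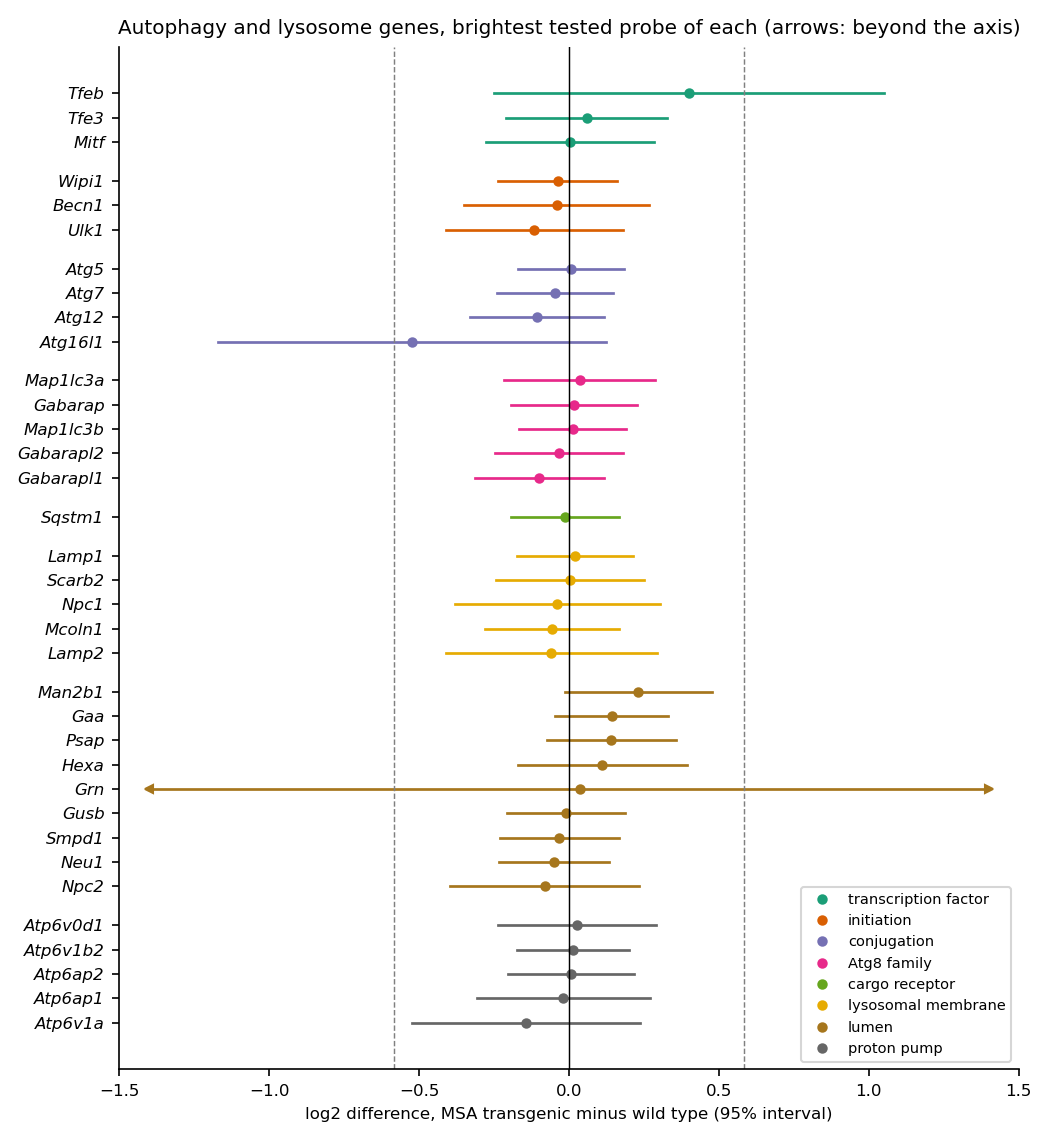
Log2 difference of MSA transgenic minus wild-type samples (horizontal axis) for the 35 genes tested, grouped by role, with the 95% interval as a bar and dashed lines at 1.5-fold either way. Every interval spans 0, and only those of Tfeb, Atg16l1 and Grn cross a dashed line.

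Among the transcription factors, Tfeb, a master regulator of lysosomal genes, had levels of 0.43, 0.41 and 0.62 in MSA transgenic samples and of -0.51, 0.41 and 0.37 in wild-type samples. The lowest transgenic value lay just above wild-type replicates 2 and 3, and wild-type replicate 1 was far lower than the other arrays. The difference was 0.40 ± 0.26 (limma adjusted p = 0.817), and within slide 2 it was 0.10. That probe is annotated to the predicted transcript XM_006524004 at chr17:47896359-47896418 (mm9). The other probes of the gene, annotated to NM transcripts, gave 0.17 ± 0.09, -0.01 ± 0.08 and 0.09 ± 0.15. Tfe3, a factor of the same family, differed by 0.06 ± 0.11, or -0.03 within slide 2. The brightest probe of Mitf, whose product governs pigment cell and osteoclast genes, differed by 0.0033 ± 0.11, or 0.10 within slide 2, and its other probes by 0.19, 0.02 and -0.09.

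Promoters were taken from RefSeq (GRCm38.p6) as 250 bases before to 50 after each gene start, and 29 of the 36 genes had at least 1, with 35 promoters in all. The E-box CACGTG, which TFEB and its relatives bind, was searched on both strands, where it reads the same. It was present in 7 of the 35 promoters (20%), against 7.15% of 32851 promoters of all genes. The longer form TCACGTGA, which contains CACGTG, was in 3 (8.57%), against 0.974%. Genes with CACGTG were Atg5, Atg7, Atp6v0d1, Atp6v1a, Gaa, Lamp1 and Mcoln1. The stretches below show the repeated copies in Lamp1 (chr8:13159086-13159160, plus strand) and Mcoln1 (chr8:3500439-3500488, plus strand), and the longer form in Atp6v1a (chr16:44139375-44139404, minus strand). Capitals mark CACGTG or TCACGTGA.
Lamp1: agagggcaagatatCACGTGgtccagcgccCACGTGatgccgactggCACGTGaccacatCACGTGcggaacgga
Mcoln1: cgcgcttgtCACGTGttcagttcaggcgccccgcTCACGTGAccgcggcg
Atp6v1a: ttttttttttaaaTCACGTGAtaggcttaa
The Lamp1 stretch ends at the base before the gene start and holds 4 copies. The median difference was 0.0078 over the 7 genes with CACGTG and -0.0036 over the 22 without it, beside -0.013 and -0.0095 for all genes with and without. A match describes these letters only.

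The genes that start autophagy showed no difference past the test. Ulk1, the initiating kinase, had levels of 4.37, 4.08 and 4.26 in MSA transgenic samples, against 4.51, 4.26 and 4.28 in wild-type samples. The groups overlapped, and the difference was -0.11 ± 0.12 (limma adjusted p = 0.824), or -0.04 within slide 2. A second Ulk1 probe, which was dim, gave 0.20 ± 0.14. Becn1, a subunit of the lipid kinase complex, stood at 0.40, 0.47 and 0.59 in transgenic and at 0.67, 0.31 and 0.61 in wild-type samples. These overlapped fully, with a difference of -0.04 ± 0.13, and within slide 2 it was 0.03. Wipi1, which binds the lipid that this kinase makes, differed by -0.04 ± 0.08 at its brightest probe.

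A dim Wipi1 probe departed from that value. A_55_P1968808 (chr11:109443686-109443745, mm9) read -3.15, -3.10 and -3.20 in MSA transgenic samples, against -2.59, -2.86 and -2.97 in wild-type samples. The groups did not overlap at this probe, and the difference was -0.34 ± 0.12 (limma over probes, unadjusted p = 0.032, adjusted p = 0.843). The third Wipi1 probe gave -0.07 ± 0.09.

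The conjugation genes held the lowest difference of the 35. Atg16l1, which directs Atg8 proteins to the growing membrane, read 4.10, 4.23 and 3.29 in MSA transgenic samples, against 4.23, 4.52 and 4.44 in wild-type samples at its brightest probe. Transgenic replicate 3 was far below the rest, and the other transgenic values lay at or just below the lowest wild-type value. The difference was -0.52 ± 0.26 (limma adjusted p = 0.817), or -0.61 within slide 2. This probe (chr1:89685064-89685123, mm9, transcript BC033362) overlaps a second one (chr1:89685077-89685136) by 43 bases in a row of the same sequence, and the second gave -0.52 ± 0.26, so these are not independent readings. The probe annotated to NM_029846 (chr1:89688896-89688955) read 2.78, 2.61 and 2.55 in transgenic samples and 2.72, 2.72 and 2.66 in wild-type samples. There the groups overlapped and the difference was -0.05 ± 0.10.

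Atg12, the ubiquitin-like protein joined to Atg5, read 3.86, 3.71 and 3.84 in MSA transgenic samples, against 3.93, 3.98 and 3.81 in wild-type samples. The groups overlapped, and the difference was -0.11 ± 0.09 (limma adjusted p = 0.817). Atg5 differed by 0.0078 ± 0.07. Atg7, the activating enzyme of both conjugation systems, differed by -0.05 ± 0.08, and its second probe gave -0.02 ± 0.13.

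The 5 Atg8 family genes, whose products coat the autophagosome, ranged from -0.10 to 0.04. Gabarapl1 read 7.44, 7.49 and 7.51 in MSA transgenic samples, against 7.47, 7.61 and 7.66 in wild-type samples. Only wild-type replicate 1 fell within the transgenic range, and the difference was -0.10 ± 0.09 (limma adjusted p = 0.817) or -0.16 within slide 2. Its second probe gave 0.13 ± 0.14. Map1lc3b, the LC3 gene most used as an autophagosome marker, read 3.77, 3.74 and 3.79 in transgenic and 3.73, 3.74 and 3.78 in wild-type samples. The 6 values were nearly alike, with a difference of 0.01 ± 0.07 and a 95% interval of -0.17 to 0.19, and its other probes gave -0.02 and -0.01. Map1lc3a differed by 0.04 ± 0.10, Gabarap by 0.02 ± 0.09 (-0.04 within slide 2) and Gabarapl2 by -0.03 ± 0.09. The other Gabarap probes, both dim, gave -0.18 ± 0.22 and -0.15 ± 0.12. The other tested Gabarapl2 probes gave -0.14 ± 0.09 (limma over probes, adjusted p = 0.843) and -0.05 ± 0.32. The first of these read 5.20, 5.17 and 5.03 in MSA transgenic samples, against 5.28, 5.25 and 5.29 in wild-type samples, without overlap.

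Sqstm1, which encodes the cargo receptor p62, a protein that is itself degraded by autophagy, read 5.28, 5.31 and 5.36 in MSA transgenic samples, against 5.32, 5.32 and 5.34 in wild-type samples. The groups overlapped within a narrow range, and the difference was -0.01 ± 0.07 with a 95% interval of -0.19 to 0.17. A second probe gave -0.03 ± 0.11. The third probe, which was dim, A_66_P110606, read -2.20, -2.29 and -2.87 in transgenic samples, against -0.91, -2.02 and -2.05 in wild-type samples. The groups did not overlap there, though wild-type replicate 1 was far above the rest. The difference was -0.79 ± 0.36 (limma over probes, adjusted p = 0.843), or -0.60 with normexp background correction.

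The lysosomal membrane genes ranged from -0.06 to 0.02. Lamp1, the most used lysosomal marker and the gene whose promoter holds 4 E-boxes, read 6.46, 6.47 and 6.56 in MSA transgenic samples, against 6.43, 6.53 and 6.49 in wild-type samples. The groups overlapped, with a difference of 0.02 ± 0.08 and a 95% interval of -0.18 to 0.21. The difference within slide 2 was -0.0069, and the second Lamp1 probe gave 0.08 ± 0.12. Lamp2, which also serves chaperone-mediated autophagy, differed by -0.06 ± 0.14, or 0.09 within slide 2, and its other probes gave 0.04 and 0.08. Mcoln1, a calcium channel of the lysosome, differed by -0.06 ± 0.09, and a dim second probe gave 0.52 ± 0.34, or -0.03 with normexp background correction. Scarb2, the receptor that carries glucocerebrosidase to the lysosome, differed by 0.0036 ± 0.10, and a second probe gave -0.22 ± 0.13. Npc1, the cholesterol exporter, differed by -0.04 ± 0.14, or 0.10 within slide 2, with 0.0005 and 0.18 at its other tested probes.

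Soluble proteins of the lysosome made up 9 genes, 5 above 0 and 4 below, with a median difference of 0.04. Man2b1, the alpha-mannosidase, read 1.32, 1.06 and 1.28 in MSA transgenic samples, against 1.05, 0.96 and 0.97 in wild-type samples. Every transgenic value was above every wild-type value, the lowest by little, and the difference was 0.23 ± 0.10 (limma unadjusted p = 0.060, adjusted p = 0.817). Gaa, the acid alpha-glucosidase that breaks down glycogen, read 5.75, 5.65 and 5.76 in transgenic samples, against 5.55, 5.61 and 5.57 in wild-type samples. The groups again did not overlap, and the difference was 0.14 ± 0.08 (limma adjusted p = 0.817), with 0.26 ± 0.24 and 0.11 ± 0.13 at its other probes.

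Psap, the precursor of the saposins that assist sphingolipid breakdown, read 5.45, 5.35 and 5.52 in MSA transgenic samples, against 5.29, 5.37 and 5.23 in wild-type samples. The groups overlapped by 1 sample each, and the difference was 0.14 ± 0.09 (limma adjusted p = 0.817). Hexa, the alpha subunit of beta-hexosaminidase, read 1.91, 2.01 and 1.92 in transgenic samples, against 2.04, 1.77 and 1.70 in wild-type samples. Wild-type replicate 1 was the highest of all, and the difference of 0.11 ± 0.11 (limma adjusted p = 0.824) became 0.21 within slide 2 (limma unadjusted p = 0.033 with slide as a block, adjusted p = 0.537). Neu1, a sialidase, differed by -0.05 ± 0.08, Npc2, a cholesterol carrier, by -0.08 ± 0.13 (0.04 within slide 2), and Smpd1, the acid sphingomyelinase, by -0.03 ± 0.08 (0.0019 within slide 2).

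Grn encodes progranulin, a secreted protein that reaches the lysosome and is made in quantity by microglia and neurons. The brightest probe, A_52_P508750, read 4.04, 4.22 and 7.07 in MSA transgenic samples, against 2.65, 5.06 and 7.50 in wild-type samples. The wild-type samples spanned the whole range and the transgenic samples lay inside it, with a difference of 0.04 ± 1.42 and, within slide 2, of -1.17. Its SD within a genotype was 2.10, and only 26 of the 24932 genes tested (0.104%) had a larger one. The second probe, A_55_P2506040, gave 0.27 ± 0.17. Both sequences, from the array files and on the plus strand of chr11 (mm9), at 102294591 to 102294650 and 102296724 to 102296783, are shown because the readings of one gene differ between them.
A_52_P508750: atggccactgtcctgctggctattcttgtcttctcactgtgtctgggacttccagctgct
A_55_P2506040: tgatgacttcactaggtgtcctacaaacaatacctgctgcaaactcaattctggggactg
The files assign both to transcript NM_008175. Neither they nor any other of the 78 probes share a run of 20 bases with a probe of another gene on the same strand, which 4.03% of all probes do.

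The third Grn probe, A_55_P2909287 (chr11:102298060-102298119, mm9), had the smallest p of the 71 probes tested. It read 3.69, 3.67 and 3.75 in MSA transgenic samples, against 3.07, 3.32 and 3.31 in wild-type samples. The groups were clearly apart, and the difference was 0.47 ± 0.10 (limma over probes, unadjusted p = 0.0036, adjusted p = 0.441). With normexp background correction it was 0.49.

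Gusb, the beta-glucuronidase, also differed between its probes. The brightest probe, annotated to an Ensembl transcript, gave -0.01 ± 0.08, or 0.02 within slide 2. A_51_P211491, annotated to NM_010368 (chr5:130465133-130465192, mm9), read 0.03, -0.01 and -0.06 in MSA transgenic samples, against -0.23, -0.30 and -0.34 in wild-type samples. The groups were apart there, with a difference of 0.28 ± 0.08 (limma over probes, unadjusted p = 0.016, adjusted p = 0.742).

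**Figure D2:**
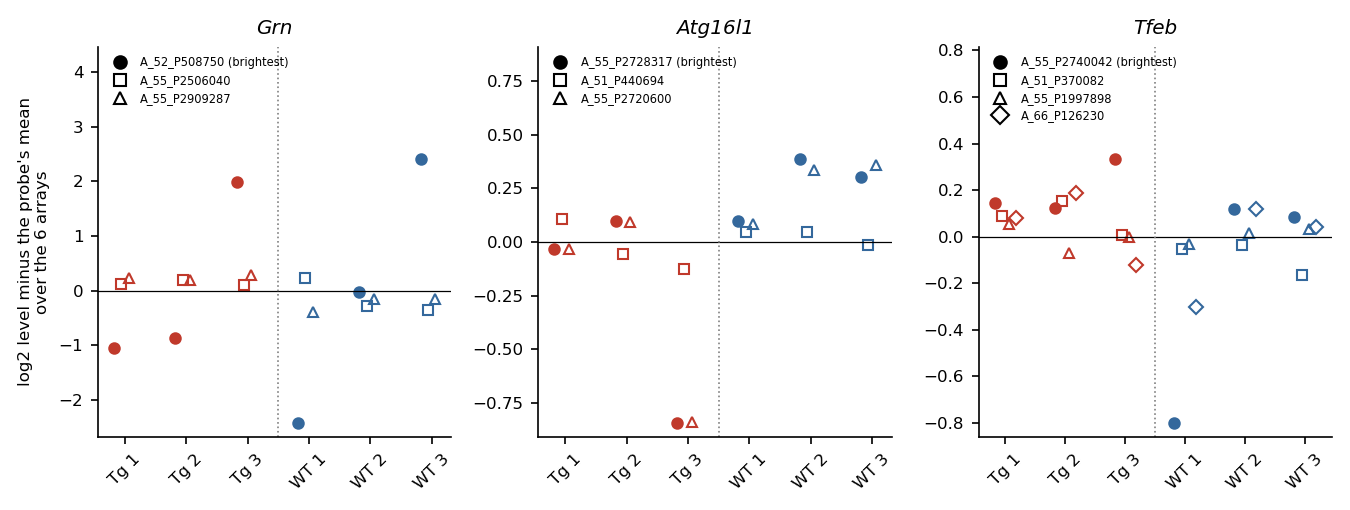
Log2 level minus the probe's mean over the 6 arrays (vertical axis) for each tested probe of Grn, Atg16l1 and Tfeb, by array, with MSA transgenic samples (Tg, red) left of wild-type samples (WT, blue) and the brightest probe filled. The brightest Grn probe spreads over both genotypes, the overlapping Atg16l1 probes share a low transgenic replicate 3, and the brightest Tfeb probe has a low wild-type replicate 1.

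The vacuolar proton pump was represented by 5 tested genes with differences of -0.14 to 0.03. Atp6v1a, the catalytic subunit and a gene with the E-box TCACGTGA, read 4.93, 4.75 and 4.66 in MSA transgenic samples, against 5.19, 4.69 and 4.89 in wild-type samples. The groups overlapped, and the difference of -0.14 ± 0.16 (limma adjusted p = 0.828) was -0.0081 within slide 2. Atp6v1b2 differed by 0.01 ± 0.08 and its second probe by -0.13 ± 0.18. Atp6ap1, an accessory subunit, differed by -0.02 ± 0.12, or 0.09 within slide 2, and its second probe by 0.12 ± 0.09. Atp6v0d1, of the membrane sector, differed by 0.03 ± 0.11 and Atp6ap2 by 0.0063 ± 0.09 (-0.02 within slide 2). Atp6v0d2, an isoform known from osteoclasts and macrophages, was not well above background on any array at either of its probes and was not tested.

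Probe by probe, 71 of 78 were well above background on all 6 arrays and 7 on none, so no probe passed through 1 genotype alone. None of the 71 was called, beside 0.0286% of all probes. At an unadjusted p under 0.05 stood 3 of 71 (4.23%), the Grn, Gusb and Wipi1 probes above, beside 5.59% of all probes. Of 22 genes with more than 1 tested probe, 13 had probes on both sides of 0, and the median range between probes of a gene was 0.22. That range exceeded the median size of the gene differences themselves. Some dim probes on the higher side turned with normexp background correction, and others did not. The second Ulk1 probe went to -0.03, the Gaa probe at 0.26 to -0.11 and the Mitf probe at 0.19 to -0.01. The Npc1 probe at 0.18 went to -0.05, and the Tfeb probes at 0.17 and 0.09 to -0.07 and -0.08. Without a turn, the Grn probe at 0.27 went to 0.22 and the Gaa probe at 0.11 to 0.06. With that correction the median over all genes was -0.048, beside -0.00049 without it. The 7 probes above background on no array then lay at -0.25 to -0.17. The part of such a shift in the turned signs was not tested.

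**Figure D3:**
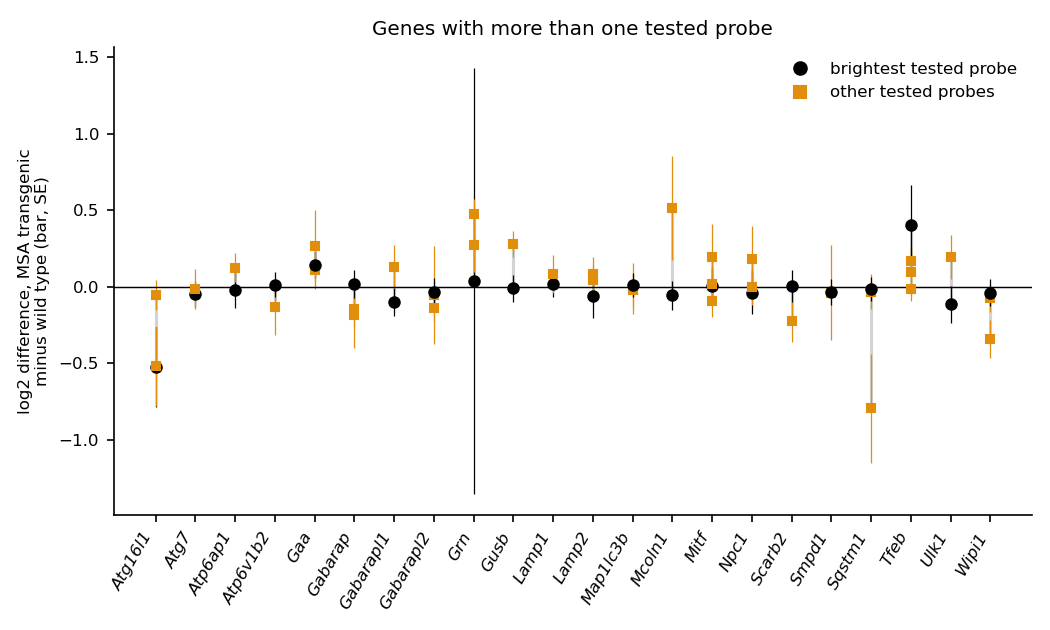
Log2 difference of MSA transgenic minus wild-type samples (vertical axis, bars are SE) for each tested probe of the 22 genes with more than 1, with the brightest probe in black and the others in orange. Sqstm1, Mcoln1, Atg16l1 and Grn show the widest gaps between probes of one gene.

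A wider list of 150 other autophagy and lysosome genes, also grouped by function, was read in the same fit. Its classes, like the other lists, were chosen with earlier results of these data known. Of the 150 genes, 147 were tested and none was called. At an unadjusted p under 0.05 there were 8 higher and 3 lower genes, where the shares over all genes were 3.15% and 2.71%. The median difference was -0.0096. Most classes lay close to 0, with medians from -0.09 for conjugation enzymes and Atg4 proteases to 0.04 for hydrolases and their cofactors. The exception was the class of lysosomal genes of phagocytes, with 8 of 8 differences above 0 and a median of 0.50, or 0.34 and 7 of 8 within slide 2. With normexp background correction the median was 0.20 and 7 of 8 were above 0, where the median over all genes was -0.048.

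In that phagocyte class 4 of 8 genes stood at an unadjusted p under 0.05, all higher, beside 3.15% of all genes on the higher side. Slc11a1, a metal transporter of the phagosome, read -1.98, -1.82 and -1.85 in MSA transgenic samples, against -3.10, -2.91 and -2.87 in wild-type samples. The groups were far apart, with a difference of 1.08 ± 0.10 (limma adjusted p = 0.0567), or 0.57 with normexp. Cd68, a glycoprotein of phagocyte lysosomes, read 0.24, 0.21 and 0.50 in transgenic samples, against -0.77, -0.80 and -0.77 in wild-type samples. It was as clearly separated, with a 95% interval of the difference of 0.84 to 1.35 (limma adjusted p = 0.0591), and the difference was 0.98 with normexp. Both lay just beyond the threshold, and each passed it under several alternatives. Neither passed with slide as a block, with no filter or with any sample left out. Lyz2, the lysozyme of macrophages, differed by 1.03 ± 0.16 (limma adjusted p = 0.191) and the nucleoside transporter gene Slc29a3, named after its values were seen, by 0.27 ± 0.10.

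Microglia markers were also on the higher side. The differences of all 12 were above 0, with a median of 0.54. At an unadjusted p under 0.05 (limma) stood 8, all higher and none called, beside 3.15% of all genes on the higher side. Each was well above background on every array, so no defining marker was at background. Their summed level, in multiples of the array's 75th percentile, was 196.1 to 213.5 in MSA transgenic samples and 89.0 to 215.6 in wild-type samples. Such a sum gives most weight to the brightest markers. The median level of the 12 markers was 1.60, 1.64 and 1.90 in transgenic samples, against 1.05, 0.78 and 0.97 in wild-type samples, without overlap. The summed level of the phagocyte lysosome class was 38.5 to 43.6 in transgenic and 30.6 to 34.2 in wild-type samples. Its median level was -1.30, -1.39 and -1.35 in transgenic samples, against -1.29, -1.67 and -1.70 in wild-type samples, with wild-type replicate 1 the highest. Oligodendrocyte markers were below 0 for 7 of 8, with a median of -0.29. Of these 8, 4 stood at an unadjusted p under 0.05 (limma), all lower and none called, beside 2.71% of all genes on the lower side. The summed level of the oligodendrocyte markers was 246.2 to 251.7 in transgenic and 282.2 to 342.0 in wild-type samples. Neuron markers were below 0 for 5 of 6, with a median of -0.16 and a summed level of 351.7 to 360.3 in transgenic and 383.9 to 413.8 in wild-type samples. Markers of granule and Purkinje cells were below 0 for 7 of 7, with a median of -0.23. Astrocyte markers were above 0 for 3 of 7, with a median of -0.04. Markers of blood and infiltrating leukocytes were above 0 for 4 of 5 tested, with a median of 0.30. The part of cell composition in the phagocyte values and in the Grn, Gusb and Man2b1 values was not tested.

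Outside the phagocyte class, higher genes of the wider list at an unadjusted p under 0.05 included a pump subunit and sulfatases. Tcirg1, a pump subunit known from osteoclasts, differed by 0.33 ± 0.08 (limma adjusted p = 0.463). The sulfatase genes Sgsh and Arsb, named after their values were seen, differed by 0.29 ± 0.10 and 0.26 ± 0.10. With normexp the value of Arsb was 0.09.

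The lower genes with the smallest p were Slc17a5, the sialic acid exporter, with -0.36 ± 0.11 (limma adjusted p = 0.697), Idua, the alpha-iduronidase, with -0.35 ± 0.11 (0.762), Atp6ap1l with -0.24 ± 0.09 and Rb1cc1, a partner of Ulk1, with -0.21 ± 0.10 (both 0.817). Of these 4, Rb1cc1 had an unadjusted p of 0.087, above 0.05. In the remaining classes the genes with the smallest p were Stx17, the syntaxin of autophagosome fusion (0.29 ± 0.14), Atg3 (-0.16 ± 0.08), the cargo receptor gene Optn (0.19 ± 0.11), Gga1 (0.17 ± 0.09) and Depdc5 (0.15 ± 0.08), each at an adjusted p of 0.817.

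**Figure D4:**
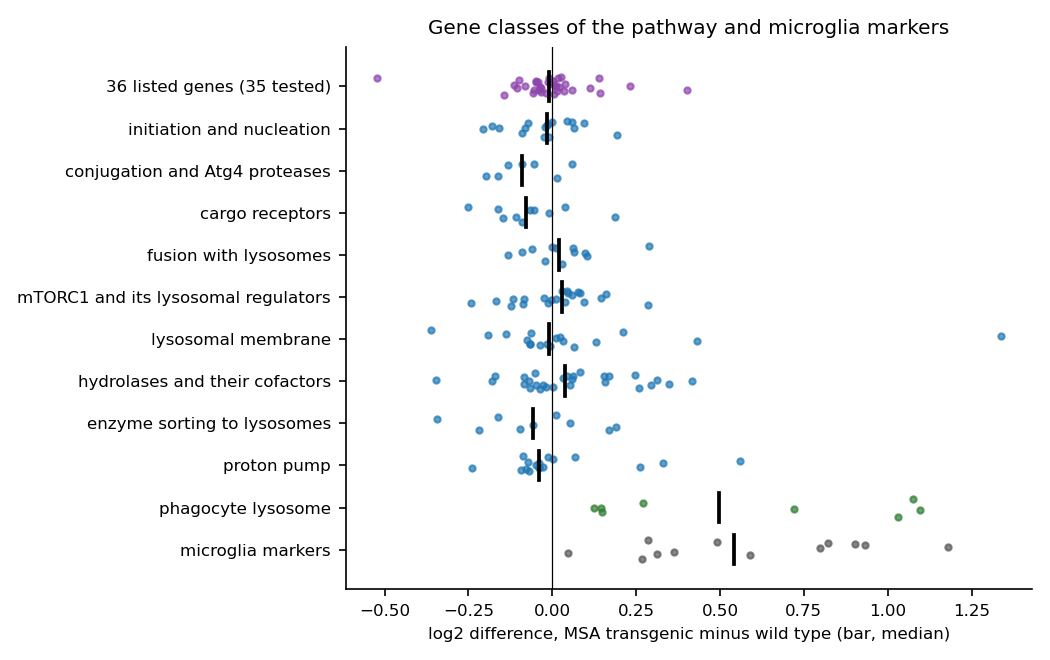
Log2 difference of MSA transgenic minus wild-type samples (horizontal axis), 1 point per gene and a bar at the median, for the 35 autophagy and lysosome genes tested, the 10 classes of the wider list and the microglia markers. The medians of the phagocyte class and the microglia markers, 0.50 and 0.54, lie apart from those of the other classes; the highest point, Mcoln3 of the membrane class (1.34 ± 1.07, named after its values were seen), rests on a wild-type replicate 1 at -7.50 and is 0.05 within slide 2.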

How the data were processed

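Arrays were read with Agilent Feature Extraction 10.7.1.1, per the file headers (9.5.1.1 per the submitters' processing notes), and annotated on mm9. The deposited scanner files hold linear intensity values, from which that software had subtracted background, per the file headers. The authors also deposited a table of intensity values with the same quantiles in every column and of unstated processing, used only as an alternative.

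The log2 of the processed signal minus that of the array's 75th percentile was used. Spots of a probe were averaged after leaving out controls and 39 to 84 outlier spots per array, and none was saturated. A probe was tested where every array of either genotype had it well above background (38463 probes), and the brightest of a gene by mean level stood for it. The test was limma 3.58.1 in R 4.3.3 (lmFit, eBayes) over all genes with Benjamini-Hochberg adjustment; genes under an adjusted p of 0.05 were called. Names came from RefSeq (GRCm38.p6) by accession for 32994 probes, by symbol for 10224 and by synonym for 520, and from the files for 12867.

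The genes and lists were chosen with earlier results of these data known. Every listed gene could be named. Values per sample were given for the 10 with the smallest p and for Tfeb, Lamp1, Sqstm1, Becn1, Map1lc3b and Atp6v1a, and genes with probes on both sides of 0 were named with their probes. Other genes named were, of the wider list, the 4 with the smallest p in each direction and the first of each class (1 gene that this takes is not reported here). The limma fit and the adjustment were tested on simulated data with planted differences, and the steps before them were not. Alternatives covered background correction, scaling, the authors' table, the filter, the probe per gene, slide, variance model, array weights and each sample left out. The number of arrays limits the precision. Replicate numbers follow accession order and pair no samples.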

Additional observations from a re-analysis of the deposited data

How the results depend on the processing

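None of the 35 genes was called under any of the alternatives run. Slide 1 holds only wild-type replicate 1, so slide as a block and leaving out that sample are the same fit. The count at an unadjusted p under 0.05 was 0, and became 2 with normexp (Gaa, Man2b1), 2 with slide as a block (Hexa, Man2b1), 3 with array weights (Gabarapl1, Hexa, Man2b1), 1 with quantile normalization, 1 with the authors' table, 1 with an intensity trend (Man2b1 in each) and 1 with the brightest probe of an NM transcript (Gusb), an alternative chosen after seeing the data; leaving out 1 sample gave 0 to 2. Over all genes the 11 calls became 29 with normexp, 23 with probes above background on all arrays, 6 with no filter, 24 with a gene's probes averaged, 7 with slide as a block, 27 with an intensity trend and 95 with array weights, and 0 (without transgenic replicate 2) to 7 (without wild-type replicate 1) when 1 sample was left out. Of the wider list 0 were called, against 1 with normexp and 1 with an intensity trend (Cd68 in each). The count was 1 with quantile normalization and 1 with the authors' table (Slc11a1 in each). It was 2 (both genes) with all arrays above background, the mean of probes and array weights. Probe by probe, another Cd68 probe was called, with a difference of 1.41 (limma over probes, adjusted p = 0.028). It was 0 genes with slide as a block, no filter, the NM probe or a sample left out.

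Some differences changed sign. Sqstm1 was 0.010 with normexp, 0.0071 with quantile normalization and 0.0074 with the authors' table. With the mean of probes Gabarapl1 was 0.015, Ulk1 0.041 and Map1lc3b -0.0077. With slide as a block Lamp1 was -0.0069 and Becn1 0.028, and with array weights Lamp1 was -0.019, Becn1 0.018 and Atp6v1a 0.0080. Tfeb was -0.012 with the NM probe. With 1 sample left out Sqstm1 ranged from -0.034 to 0.0036, Becn1 from -0.15 to 0.028 and Lamp1 from -0.012 to 0.043. The cause was not tested. No paired analysis was possible because the labels give no replicate numbers.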
